A study of Mus musculus with 6 samples.

Results

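Dazl, Ddx4, Dnd1, Nanos2 and Nanos3 encode RNA-binding proteins of the germ line, and every probe set that the platform annotation lists under one of these 5 genes was taken, with each probe set kept apart. The annotation lists 4 such probe sets among 45101 on the array, 2 for Dazl (1449502_at and 1419542_at), 1 for Ddx4 (1427242_at) and 1 for Dnd1 (1455367_at). Nanos2 and Nanos3 had no probe set listed by symbol, gene ID or RefSeq accession and are not analysed here. RNA was measured in the embryonic testis at E13.5 (days after conception), in the testis at postnatal day 1 (PN1) and in the whole male E13.5 embryo. Each tissue was taken from 129/Sv, an inbred mouse strain in which testicular germ cell tumors arise spontaneously, and from 129.MOLF-Chr19, a consomic strain that carries chromosome 19 of MOLF on the 129 background, abbreviated M19 in the labels. The 6 groups had 1 array each, of RNA pooled from 20 testis pairs per strain at E13.5, from 12 pairs of 129/Sv and 25 pairs of 129.MOLF-Chr19 at PN1, and from 3 embryos per strain. The source labels call the E13.5 gonads male genital ridges. The strain comparison looks for expression changes in gonads at stages of tumor formation, and the embryo shows whether a change is seen outside the gonad.

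Male germ cells enter the genital ridge as primordial germ cells, stop dividing in the fetal testis as gonocytes, and begin spermatogenesis after birth. At each step much of their regulation acts on mRNA already made. Dazl binds U-rich sites in the 3′ ends of mRNAs and promotes their translation, and germ cells need it to become competent for sexual differentiation. Ddx4, also called Vasa or Mvh, is an ATP-dependent RNA helicase of the germ granule that acts in the piRNA pathway against transposons. Dnd1 binds mRNA together with Nanos2 and recruits the CCR4-NOT deadenylase, which shortens poly(A) tails. The Ter mutation of Dnd1 causes loss of germ cells and, on the 129 background, testicular teratomas. Nanos2 blocks meiosis in fetal male germ cells, and Nanos3 keeps migrating primordial germ cells alive. RefSeq assembly GRCm38.p6 places Dazl on chromosome 17, Ddx4 on 13, Dnd1 on 18, Nanos2 on 7 and Nanos3 on 8. None of the 5 genes is therefore on the chromosome that differs between the strains by design.

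Values were deposited as intensity on a linear scale. The 25th percentile of an array, from 107 to 125, served as a floor, and the array medians ran from 220 to 251. The testis labels were set against marker lists: all 10 Sertoli cell markers lay above the array median on each of the 4 testis arrays. Of the 10 germ cell markers, which include Dazl and Ddx4, 7 to 9 lay above the median on the testis arrays, against 2 on each embryo array, where 7 were at the floor. The PN1 array of 129.MOLF-Chr19 stood apart in its control probe sets. Its ratio of the 3′ to the 5′ Actb control was 1.84, against 1.09 to 1.19 on the other 5 arrays, while its Gapdh ratio of 0.916 lay inside the range of 0.895 to 0.966 over all 6 arrays. Its Actb signal was also lower, at 5118 for the 3′, 1517 for the middle and 2778 for the 5′ control. The lowest values on the other 5 arrays were 15203, 12444 and 12811, all in the PN1 testis of 129/Sv. Its 3′ Gapdh signal of 8379 lay inside the range of 8241 to 10926 over all 6 arrays. Results that rest on this array are given with and without it where the design allows.

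Dazl and Ddx4 were far higher in the testis than in the embryo in both strains. Because both were high in the testis and at the floor in the embryo, their RefSeq promoters (GRCm38.p6, 250 bases before to 50 after the start) are shown, 5′ to 3′ on the gene's own strand with every CG dinucleotide in capitals. The Dazl promoter is on the minus strand at chr17:50293571-50293870 and the Ddx4 promoter on the minus strand at chr13:112652261-112652560.
Dazl: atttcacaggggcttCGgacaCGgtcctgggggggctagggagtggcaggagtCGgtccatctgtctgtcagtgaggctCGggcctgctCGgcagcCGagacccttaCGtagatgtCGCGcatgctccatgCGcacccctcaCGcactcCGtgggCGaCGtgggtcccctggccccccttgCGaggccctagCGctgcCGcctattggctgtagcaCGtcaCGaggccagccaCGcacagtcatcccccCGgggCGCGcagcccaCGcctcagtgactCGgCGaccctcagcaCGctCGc
Ddx4: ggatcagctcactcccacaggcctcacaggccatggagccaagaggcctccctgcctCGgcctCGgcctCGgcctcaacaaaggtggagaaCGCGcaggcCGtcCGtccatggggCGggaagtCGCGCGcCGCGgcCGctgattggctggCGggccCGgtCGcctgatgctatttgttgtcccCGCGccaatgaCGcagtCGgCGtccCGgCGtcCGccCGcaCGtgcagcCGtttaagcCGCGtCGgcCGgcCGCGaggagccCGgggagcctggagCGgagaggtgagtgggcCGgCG
The capitals show how closely CG dinucleotides sit in both promoters. The Dazl promoter holds 28 of them and is 68.7% G or C, and 14.2% of the 32851 RefSeq promoters of this table hold as many or more. The Ddx4 promoter holds 38 and is 72.0% G or C, and 4.95% of promoters hold as many or more, the median being 7. The ratio of observed to expected CG was 0.795 for Dazl and 0.978 for Ddx4. GGGCGG, searched on both strands, was found 0 times in the Dazl promoter and 2 times in that of Ddx4, and 35.7% of all promoters hold it. CCAAT, searched likewise, was found 1 time for Dazl and 2 times for Ddx4, and 37.4% of promoters hold it. These matches describe the letters and not bound sites.

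On the E13.5 testis arrays, Dazl probe set 1449502_at read an intensity of 5114 in 129/Sv and 3505 in 129.MOLF-Chr19. On the embryo arrays it read 109 and 97.1, below the floor in both strains. At PN1 it read 2718 in 129/Sv and 695 in 129.MOLF-Chr19. All 4 testis arrays thus lay well above both embryo arrays, and the PN1 array of 129.MOLF-Chr19 was the lowest of the testis arrays. The other Dazl probe set, 1419542_at, read 1590 and 1270 in the E13.5 testis of 129/Sv and 129.MOLF-Chr19, 57.6 and 61.6 in the embryo, and 829 and 1143 in the PN1 testis. Its testis and embryo arrays did not overlap either, and here the lowest testis array was the PN1 array of 129/Sv.

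Ddx4 read 395 in the E13.5 testis of 129/Sv and 386 in that of 129.MOLF-Chr19, 18.1 and 22.1 in the embryos, and 494 and 499 in the PN1 testes. The strains lay close together in each tissue, and the embryo arrays were far below the floor. Dnd1 had another pattern. It read 615 and 537 in the E13.5 testis, 440 and 355 in the embryo, and 450 and 519 in the PN1 testis, again with 129/Sv first. It lay above the array median on all 6 arrays, embryo included, and the 129/Sv embryo came within a small margin of the 129/Sv PN1 testis. In RefSeq the Dnd1 gene overlaps Wdr55, a WD-repeat protein gene, and whether the Dnd1 probes also read its transcript was not tested. The Wdr55 probe set 1426496_at read 722 and 918 in the E13.5 testis, 825 and 707 in the embryo and 570 and 614 in the PN1 testis, a different order of arrays from that of Dnd1.

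**Figure D1:**
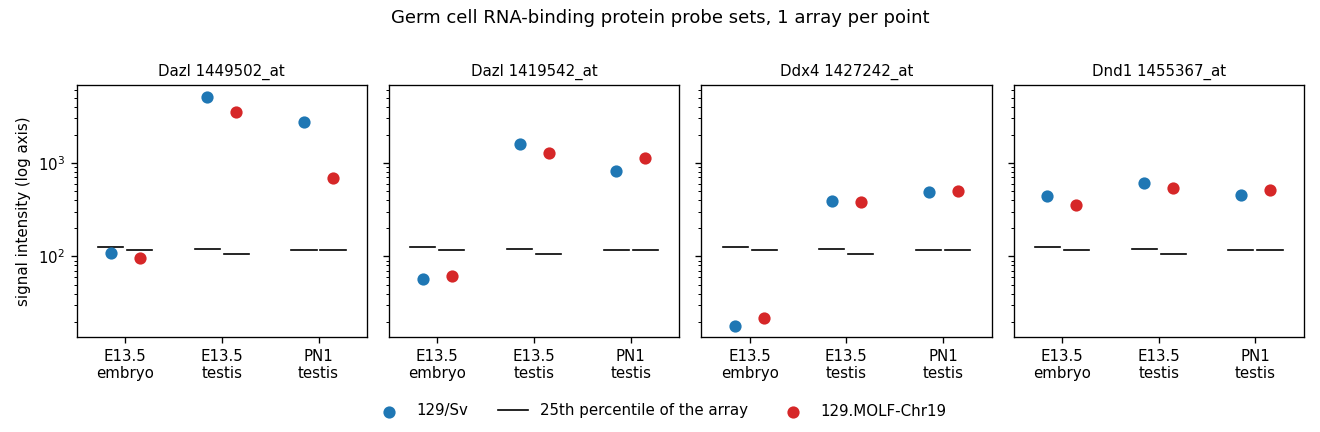
Signal intensity (log axis) of the 4 probe sets on the 6 arrays, with 1 point per array, 129/Sv in blue and 129.MOLF-Chr19 in red, and the array's 25th percentile as a short line. Both Dazl probe sets and Ddx4 lie below that line on the embryo arrays, Dnd1 lies above it everywhere, and the Dazl points of the PN1 testis are ordered oppositely in the 2 probe sets.

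All 4 probe sets, in all 3 measured genes, were higher in the E13.5 testis than in the E13.5 embryo. Both Dazl probe sets and Ddx4 entered the test through the testis arrays alone, so their count is a description. The background was wide: 14% of the 24713 probe sets tested were called higher and 18% were called in either direction, by limma with Benjamini-Hochberg adjustment over all of them at 0.05. That fit used the 6 arrays with strain as a block and left 2 residual degrees of freedom, so its spread is how far the strain difference varied between tissues, and no label describes a replicate of a group. Dazl 1449502_at differed by 5.21 on the log2 scale (SE 0.419, 95% confidence interval 4.20 to 6.21, limma adjusted p = 0.000756), which with the embryo at the floor is at least 37.0-fold higher. Dazl 1419542_at differed by 3.63 (SE 0.178, limma adjusted p = 0.000129), at least 12.4-fold higher. Ddx4 differed by 1.77 (SE 0.120, limma adjusted p = 0.000408), at least 3.41-fold higher. For these 3 probe sets the call held under each alternative that kept both arrays of each compared tissue. Both embryo arrays were at the floor for them, so the floor set the embryo part of the spread. Their adjusted p is thus a description too. With 1 compared array left out, the spread of its tissue is not measured and only the size is given. The sizes moved, for Dazl 1449502_at from 4.61 without the 129/Sv embryo array to 5.80 without that of 129.MOLF-Chr19. The bounds also follow the floor: with it at the 40th percentile Ddx4 differed by 1.14 and Dazl 1419542_at by 3.00, and with no floor by 4.37 and 4.66.

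The Dnd1 difference was smaller and less stable. At 0.62 (SE 0.144, 95% confidence interval 0.28 to 0.97, limma adjusted p = 0.0287), it was 1.54-fold. Its direction was shared by both strains, at 0.55 in 129/Sv and 0.70 in 129.MOLF-Chr19. The call was lost with the values as deposited (0.54, limma adjusted p = 0.0563), after quantile normalization (0.51, 0.0682), without the expression filter (0.0544) and without any 1 of the 4 compared arrays (0.48 to 0.77, adjusted p from 0.0875 to 0.224). Without the 129.MOLF-Chr19 PN1 array, which is not part of this contrast but adds to the spread of the fit, the difference stayed at 0.62 with an adjusted p of 0.000979, and 30% of all 24144 probe sets tested were then called. Over all 16 fits its adjusted p ran from 0.000979 to 0.224. Wdr55 differed by 0.18 in the same contrast (limma adjusted p = 0.521).

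The PN1 testis was set against the same embryo arrays, so the values of both contrasts share their controls. Of the probe sets tested, 9.1% were called higher and 15.6% in either direction, and 3 of the 4 probe sets were among the higher ones. These 3 entered the test through the testis arrays alone and were at the floor on both embryo arrays. Their count and adjusted p are therefore descriptions, and the share over all probe sets is not a like background. Dazl 1449502_at differed by 3.59 (SE 0.419, limma adjusted p = 0.00213, at least 12.1-fold higher) and Dazl 1419542_at by 3.10 (limma adjusted p = 0.000115, at least 8.55-fold higher). Ddx4 differed by 2.12 (limma adjusted p = 0.000105), at least 4.36-fold higher. The size for Dazl 1449502_at was at least 23.8-fold on the 129/Sv arrays and at least 6.11-fold on those of 129.MOLF-Chr19. Each strain had 1 array per tissue, and no strain difference of Dazl was called in the fits below. Without the 129.MOLF-Chr19 PN1 array it was 4.47, and without the 129/Sv PN1 array 2.72. Without the 129.MOLF-Chr19 PN1 array, Dazl 1419542_at was at 2.81, Ddx4 at 2.14 and Dnd1 at 0.21. Dnd1 differed by 0.38 (SE 0.144, 95% confidence interval 0.04 to 0.73, limma adjusted p = 0.133) and did not pass. Without the 129/Sv PN1 array, Dnd1 was at 0.56, in a fit where PN1 is 1 array and its spread is not measured. The calls of Dazl and Ddx4 held under each alternative that kept both arrays of each compared tissue. In whole tissue, fewer germ cells and less RNA per germ cell cannot be told apart.

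**Figure D2:**
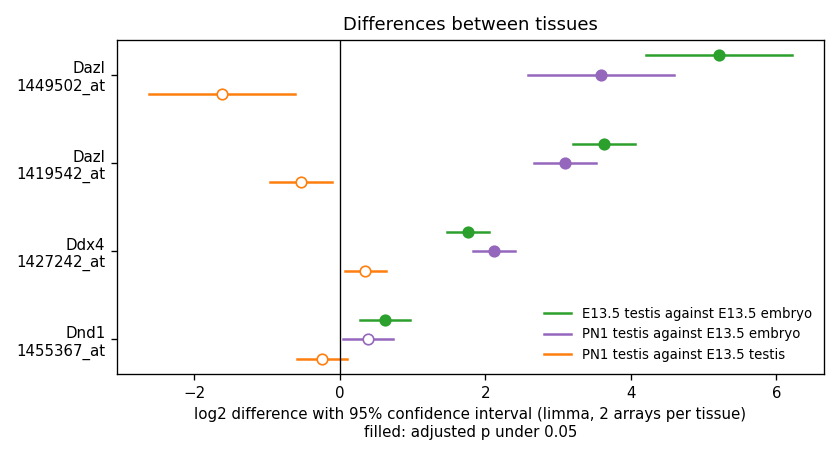
Log2 difference and 95% confidence interval (limma, 2 arrays per tissue) of each probe set in the 3 tissue contrasts, with filled points for an adjusted p under 0.05. The Dazl and Ddx4 points against the embryo lie between 1.77 and 5.21, Dnd1 lies between 0.38 and 0.62, and each PN1 against E13.5 testis point is open.

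Between the E13.5 and the PN1 testis no probe set of these genes passed the test, where 12.6% of all probe sets did, 3.14% higher and 9.43% lower at PN1. 6956 of the 24713 probe sets had an unadjusted p under 0.05. Dazl 1449502_at was at -1.61 (SE 0.419, 95% confidence interval -2.62 to -0.61, limma adjusted p = 0.0533) and Dazl 1419542_at at -0.54 (SE 0.178, limma adjusted p = 0.103). Ddx4 was at 0.35 (SE 0.120, limma adjusted p = 0.108) and Dnd1 at -0.24 (SE 0.144, limma adjusted p = 0.332). The point estimates thus differ in sign between Ddx4 and the others, without a call.

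The Dazl estimates average over arrays of both strains that gave different values, with 1 array per strain and age. In 129/Sv alone, PN1 minus E13.5 was -0.84 for 1449502_at and -0.87 for 1419542_at, nearly the same value from both probe sets. In 129.MOLF-Chr19 alone, it was -2.38 and -0.20. The probe sets agree on the 129/Sv arrays and part on those of 129.MOLF-Chr19. Without the 129.MOLF-Chr19 PN1 array, 1449502_at was at -0.74 and 1419542_at at -0.82. Without the 129/Sv PN1 array, they were at -2.49 and -0.25. In either fit PN1 is 1 array, so its spread is not measured and only the size is given. With the values as deposited, 1449502_at passed at -1.62 (limma adjusted p = 0.0226). Over the alternatives that kept both arrays of each age and each probe set apart, the limma adjusted p of 1449502_at ran from 0.0226 to 0.183. That of 1419542_at ran from 0.0839 to 0.303, so it did not pass in any of them. The mean of both Dazl probe sets, 1 value for the gene, was at -1.08 (limma adjusted p = 0.0105). Ddx4 was 0.39 higher at PN1 in 129/Sv and 0.32 higher in 129.MOLF-Chr19.

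No probe set of these genes passed the test of strain in either fit. Across the 3 tissues, 0.0121% of probe sets were called, which is 3 of 24713, and 3268 had an unadjusted p under 0.05. Dazl 1449502_at was at -0.80 as 129.MOLF-Chr19 minus 129/Sv (SE 0.342, limma adjusted p = 0.385), Dazl 1419542_at at 0.08 (0.812), Ddx4 at 0.03 (0.902) and Dnd1 at -0.03 (0.918). The value of Dazl 1449502_at rested largely on PN1: it was -0.22 without the PN1 pair and -1.20 without the embryo pair. For both Dazl probe sets and Ddx4 the embryo pair was at the floor. Its strain difference was thus set by the floor, at -0.0064, and enters both the estimate and the spread. In the testis at both ages, 0.00849% were called, which is 2 of 23551, and 2177 had an unadjusted p under 0.05. The same 4 probe sets were at -1.20 (SE 0.362, limma adjusted p = 0.508), 0.13 (0.788), 0.05 (0.871) and 0.06 (0.852). That fit had 1 residual degree of freedom.

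Within a tissue, each strain had 1 array, so a strain difference has no replicate check and a probe set was counted at 2-fold or more. In the E13.5 testis, none of the 4 probe sets reached it, against 0.169% of all compared. Dazl was 0.43 lower by 1449502_at and 0.21 lower by 1419542_at in 129.MOLF-Chr19, Ddx4 was 0.09 higher and Dnd1 0.08 lower, where the median over all was 0.07. In the embryo only Dnd1 could be compared, at -0.22, against 0.349% of probe sets past 2-fold.

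In the PN1 testis, 1 of the 4 probe sets passed 2-fold, as did 1.89% of the 23805 compared, 1.69% lower and 0.202% higher in 129.MOLF-Chr19. It was Dazl 1449502_at, at -1.97, from 2718 in 129/Sv to 695, which is 3.92-fold lower. Dazl 1419542_at was at 0.46, from 829 to 1143, the opposite direction for the same gene. Ddx4 was at 0.01 and Dnd1 at 0.20. The mean of both Dazl probe sets was at -0.75 and did not reach 2-fold.

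Disagreement of this kind was common among the lower probe sets of each tissue. At PN1, among 4988 genes with several compared probe sets, 292 had at least 1 that was 2-fold lower, and 201 of these (68.8%) had another above 0. Only 2 of them had all their probe sets 2-fold lower. The share was 62.5% (5 of 8 genes) in the E13.5 testis and 61.1% (22 of 36) in the embryo. The median over all probe sets compared at PN1 was 0.02, so a value above 0 was the commoner sign. No such share was counted over all genes. In the other direction, 17 genes had a 2-fold higher probe set at PN1, and 2 of these had another below 0. That count was 3 of 13 in the E13.5 testis and 3 of 7 in the embryo. The Dazl gap of 2.43 between probe sets was large even so: 23 genes, Dazl included, had a gap as large or larger, and the median gap was 0.30. The raised Actb ratio stated above was measured on the same array, and its part in the Dazl difference was not tested. The RNA-binding genes Cnot6 and Rbm46 showed the like: Cnot6, a deadenylase subunit, had 1 probe set at -1.27 and others at 0.21, -0.06 and 0.35. Rbm46, a germ cell RNA-binding protein, had 1 at -1.06 and another, below the expression filter, at 0.35.

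Other germ cell genes gave a range of strain values on the same PN1 arrays. Of the listed genes' probe sets at the floor on both embryo arrays, 9 in 8 genes lay above the floor on both PN1 arrays. 1 of them is a dim probe set of Zbtb16, whose brighter probe set read 309 and 275 in the embryo. Their PN1 strain differences ran from -0.26 to 1.36 with a median of 0.04. Mael was at -0.04, Sycp3 at 0.01, Piwil2 at 0.16 and Tex19.1 at -0.26. The highest was Pou5f1, the pluripotency factor also called Oct4, with 177 in 129/Sv and 454 in 129.MOLF-Chr19. At E13.5 the same 9 probe sets ran from -0.52 to 0.36, with a median of -0.16.

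**Figure D3:**
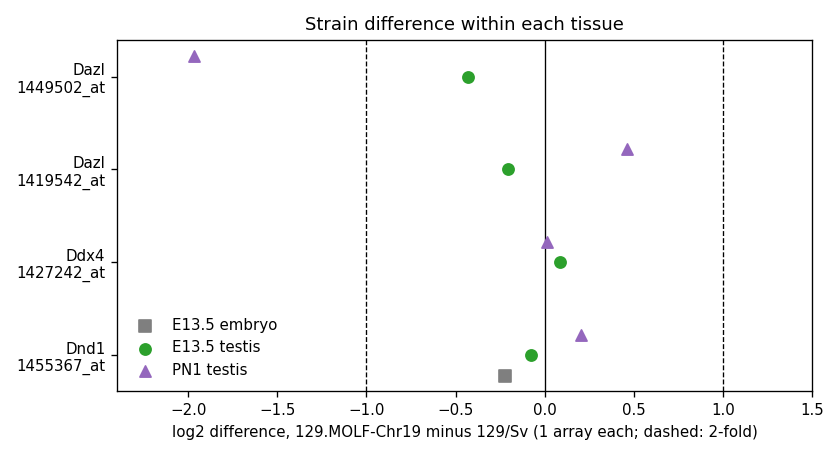
Log2 difference of 129.MOLF-Chr19 minus 129/Sv for each probe set in each tissue, 1 array per strain, with dashed lines at 2-fold. Dazl 1449502_at in the PN1 testis, at -1.97, is the point past the line, and the other Dazl probe set lies at 0.46 in the same arrays.

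Genes that act beside these proteins were followed in lists, each gene by its brightest probe set. List counts are descriptions, because some listed genes entered the test only through the arrays where they were high. Between E13.5 and PN1, the germ cell and pluripotency list had 2 of 22 tested genes higher at PN1 and 8 lower, with a median of -0.14 against -0.04 over all probe sets, of which 3.14% were called higher and 9.43% lower. Markers of other cells moved over the same arrays. The mean log2 level above the array median went from 2.40 and 2.54 at E13.5 to 3.55 and 3.43 at PN1 for Sertoli cells, and from 2.32 and 2.13 to 3.06 and 3.08 for fetal Leydig cells. For erythroid cells it went from 2.32 and 2.51 to 0.31 and 0.48. Their part in the changes of the lists was not tested. Dppa5a (-3.87, limma adjusted p = 4.45e-05) and Dppa3 (-3.59, 6.26e-05), genes of the pluripotent state and early germ cells, fell most. Sox2, a pluripotency factor, fell by at least 2.14 and Zfp42 by at least 1.58, Sox2 to the floor on 1 PN1 array and Zfp42 on both. Dppa5a read 3763 and 3907 in the E13.5 testes and 263 and 257 in those of PN1. Sohlh1, a transcription factor of spermatogonia, rose by 1.01 (limma adjusted p = 0.00986), and Alpl rose by 0.50.

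The piRNA and germ granule list, where Ddx4 acts, had 3 of 16 tested genes higher at PN1 and 1 lower, with a median of 0.21. Mael, a piRNA pathway protein, rose by 2.37 (SE 0.120, limma adjusted p = 0.000296), from 344 and 283 to 1626 and 1586. The helicase gene Tdrd9 rose by at least 1.47, and Dnmt3l, a cofactor of transposon methylation, by 0.64. Prmt5, the arginine methyltransferase that modifies Piwi proteins, fell by 1.51. Ddx4 was at 0.35 in the same contrast, without a call.

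The list of other germ line RNA-binding and translation regulators, which holds Nanos1, had 0 of 15 tested genes higher and 6 lower at PN1, with a median of -0.38. Elavl2, which binds AU-rich sites, fell by 1.33 (limma adjusted p = 0.00954). Cpeb1, a regulator of cytoplasmic polyadenylation, fell by at least 1.17, to the floor, and Lin28a, which blocks let-7 maturation, fell by 1.06. Tia1 fell by 0.95. Nanos1, the family member that was measured, read 249 and 211 in the E13.5 testis, 342 and 334 in the embryo and 281 and 247 at PN1 by 1455877_a_at. It was lower in the E13.5 testis than in the embryo, at -0.48 (limma adjusted p = 0.0467). Nanos1 lies on chromosome 19, and no strain difference of it was called, where the strain fits called 0.0121% and 0.00849% of all probe sets.

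Of the CCR4-NOT list, the deadenylase that Nanos2 and Dnd1 recruit with its Tob and Btg adaptors, 1 of 14 genes rose and 2 fell at PN1, against 3.14% and 9.43% over all probe sets. The adaptor Tob1 rose by 0.63, while the adaptor Btg1 fell by 0.93 and the catalytic subunit Cnot8 by 0.52. Of 8 tested meiosis genes, 1 rose: Sycp3, a component of the synaptonemal complex, by 1.01 (limma adjusted p = 0.0158). Of 12 tested genes reported as targets of Dazl or Dnd1, 0 rose and 3 fell, the chromatin repressors Ezh2 (-0.77) and Suz12 (-0.77) and the phosphatase gene Cdc25a (-0.54).

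**Figure D4:**
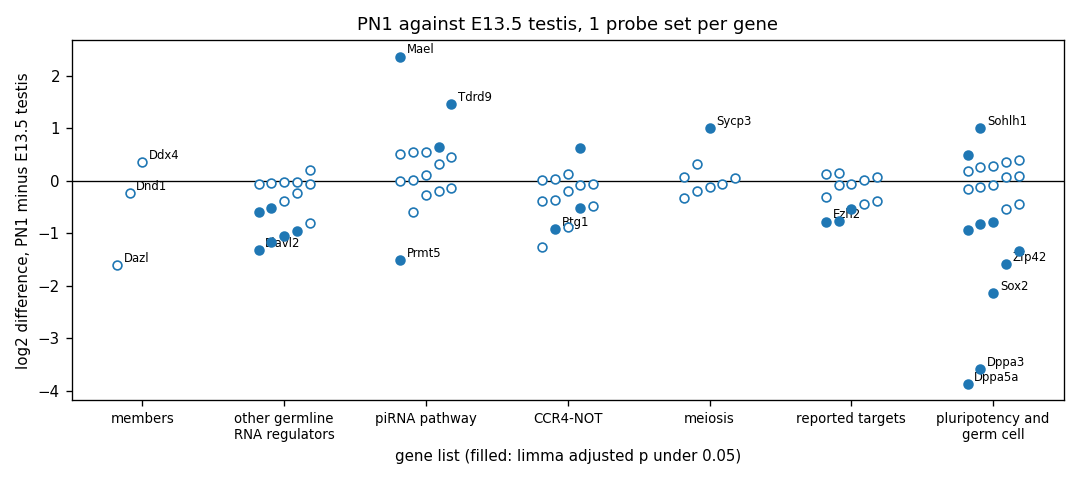
Log2 difference of PN1 minus E13.5 testis for each tested gene of each list, 1 probe set per gene, filled where the limma adjusted p was under 0.05. The members are open, the RNA regulators that passed lie below 0, and the pluripotency list spans from Dppa5a at -3.87 to Sohlh1 at 1.01.

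Against the embryo, the E13.5 testis had 9 of 22 germ cell and pluripotency genes higher and 1 lower, led by Dppa5a at 4.48 and Dppa3 at 3.85, where 14% of all probe sets were higher. The piRNA list had 4 of 16 higher, with Stk31 at 1.69 or more and Mael at 1.45 or more. The RNA regulators had 3 of 15 higher, Rbm46 at 1.52 or more, Lin28a at 1.25 and Cpeb1 at 1.22 or more, and 1 lower, Nanos1. The target list had 4 of 12 higher, with Tex19.1, a germ cell gene, at 2.50 or more, and the meiosis list had 2 of 8 higher, Syce2 at 0.89 and Stag3 at 0.62. The deadenylase list had 2 of 14 higher, Cnot11 at 0.66 and Cnot2 at 0.53, near the share over all probe sets. Dppa5a, Dppa3, Stk31, Mael, Rbm46, Cpeb1, Tex19.1 and Stag3 lay below the median on both embryo arrays and entered the test through testis arrays. The share over all probe sets is therefore not a like background for the counts of their lists. At PN1, where 9.1% of all probe sets were higher than in the embryo, the piRNA list had 8 of 16 higher and 1 lower, with Mael at 3.82 or more. Of the 8, Piwil2, Tdrd7, Tdrd9 and Mov10l1 entered the test through the PN1 arrays alone, so that count is a description. The germ cell and pluripotency list had 7 of 22 higher and 2 lower.

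The list results moved with the 129.MOLF-Chr19 PN1 array, whose removal leaves PN1 with 1 array and no measure of its spread. For contrasts with PN1 only medians are therefore given. Removal also changed which genes were tested. Sycp3, Sohlh1, Piwil2, Tdrd7, Tdrd9 and Mov10l1 lay above the array median on the PN1 arrays alone. None of them was tested without the 129.MOLF-Chr19 PN1 array. Leaving it out was an alternative chosen after its values were seen. PN1 minus E13.5 then had a median of -0.34 over 15 RNA regulators and -0.41 over 21 genes of the pluripotency list. The median was -0.13 over 7 meiosis genes and -0.04 over all probe sets. Against the embryo, 12 piRNA genes at PN1 had a median of 0.28, with -0.0019 over all probe sets. The deadenylase and target lists had 5 of 14 and 7 of 12 higher in the E13.5 testis than in the embryo. That contrast called 30% of all probe sets in either direction. No gene of any of these lists was called in either strain fit, where 0.0121% and 0.00849% of all probe sets were called. So few calls overall leave this absence uninformative about the lists.

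Profiles most like each member were sought by Pearson's r of log2 values over the 6 arrays, among 2289 or 2290 genes that varied 2-fold or more. With 6 arrays in 3 tissues, r mostly reflects the tissue levels and is given as a description. For Dazl 1449502_at they were Efnb1, Mettl5, Pdpr, Tpp1 and Tgm2 (r from 0.982 to 0.992). For Dazl 1419542_at, added after its values were seen, they were Tex30, Dppa4, Gna14, Fdx1 and Notch2 (r from 0.995 to 0.999). By r, the 2 Dazl probe sets thus shared none of their 5 nearest genes, unlike by distance below. For Ddx4 they were Cst9, Aard, Gask1b, Pcolce and Mgst1 (r from 0.998 to 1.00), of which Cst9 is on the list of Sertoli cell markers used here. For Dnd1 they were Retreg1, Ptpn2, Tex14, Gas2l3 and Bambi (r from 0.967 to 0.993). By Euclidean distance the nearest were Wt1 for Dazl 1449502_at, Cyp17a1 for Dazl 1419542_at, Gask1b for Ddx4 and Ptpn2 for Dnd1. By this measure Wt1, Gucy1a1, Amhr2 and Cyp17a1 were among the 5 nearest genes of both Dazl probe sets.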

How the data were processed

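The authors deposited 1 intensity per probe set and array on a linear scale, from 6 Affymetrix arrays of pooled RNA, per the labels. The summarisation is not given in the sources used here. Genes were named through the platform annotation, where 34958 probe sets have 1 gene symbol, 932 several and 9211 none, and checked by gene ID against RefSeq (GRCm38.p6). 64 control probe sets were left out. Values were raised to the 25th percentile of the array, log2 transformed and centred on the array median. A probe set was tested if above the array median on at least 2 arrays (1 within a tissue). 5 contrasts were fitted by lmFit and eBayes (trended prior, two-sided) of limma 3.58.1 under R 4.3.3, with Benjamini-Hochberg adjustment over all probe sets at 0.05. The number of arrays limits the precision. Alternatives changed the centring, floor, filter, trend, block, probe set rule, fold threshold or arrays. The members and lists were chosen with earlier results of these data known. The named genes were the members, up to 4 called genes per list and direction, the 5 nearest profiles, and, chosen after their values were seen, Wdr55, Nanos1, Cnot6, Rbm46 and Pou5f1 at PN1. Python 3.11.15 (pandas 2.3.3, numpy 2.4.6, matplotlib 3.10.9) served for counting and drawing.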

Additional observations from a re-analysis of the deposited data

Results flagged for a closer look

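3 pairs of strain differences had opposite signs in different tissues, with 1 array per group, and none of these differences between tissues was tested. Dazl 1419542_at was at -0.21 (129.MOLF-Chr19 minus 129/Sv, log2) in the E13.5 testis and at 0.46 in the PN1 testis. Dnd1 was at -0.08 in the E13.5 testis and at 0.20 in the PN1 testis. Against that PN1 value, Dnd1 was at -0.22 in the embryo. All these values are under 2-fold.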

How the results depend on the processing

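Each count of called probe sets among the 4 was recomputed under the alternatives, and 88 of 94 such counts stayed within 1.5 times the count reported. A count of 0 that stayed 0 and a fall from 4 to 3 both lie within that limit. The losses of the Dnd1 call in the E13.5 testis against the embryo are therefore not seen in it. Between E13.5 and PN1 testis the count was 0, but 1 with values as deposited and 2 with the mean of the probe sets of a gene (Dazl at -1.08, adjusted p = 0.0105, and Ddx4 at 0.35, adjusted p = 0.0392, with limma). Leaving out 1 array gave 0 to 2. For strain in the testis, the fit without a filter called 1, Dazl 1449502_at (limma adjusted p = 1.87e-15), in a fit where 9096 probe sets at the floor on all 4 testis arrays have no spread. Within the PN1 testis, the mean of probe sets called 0, with Dazl at -0.75. Signs turned in 6 strain values, none past the threshold. With values as deposited, Ddx4 was at -0.037 across 3 tissues and -0.0078 in the testis. With the mean of probe sets, the value that stands for Dazl 1419542_at was -0.36 and -0.54. Across tissues, leaving out 1 pair moved Dazl 1419542_at between -0.11 (no PN1 pair) and 0.23, and Dnd1 between -0.15 and 0.063 (no embryo pair). Counts over all probe sets moved more, from 87 to 5182 between the testis ages (3106 reported), 516 to 7250 for E13.5 testis against embryo (4453), 1290 to 4970 for PN1 testis against embryo (3851), 0 to 61 for strain across tissues (3), 0 to 1379 for strain in the testis (2) and 57 to 1379 within the PN1 testis (451). The 7250 came without the 129.MOLF-Chr19 PN1 array, an alternative chosen after seeing the data. No paired analysis was possible because each group has 1 array, all numbered 1, so replicate numbers pair nothing beyond the tissue and strain blocks already in the fits. Leaving out 1 array of the testis strain fit leaves no residual degrees of freedom and was not run. Signals at the floor give bounds only.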
